A study of Drosophila melanogaster with 6 samples.

Results

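Genes that shape the wing hair and the apical matrix above it are described here by their H3K27me3 in wing imaginal discs expressing the control histone H3K27R and by their place on the authors' list of genes upregulated with the oncohistone H3K27M. The 6 genes are mwh, frtz, fy, jv, sha and dpy, out of 13922 protein-coding genes on the 6 chromosome arms that carry peaks. They were found by symbol in the RefSeq gene table of Drosophila melanogaster Release 6, the assembly that dm6 names. They were selected on 4 measured values, namely membership of the upregulated list, the share of the span under H3K27me3 peaks, the strength of those peaks and the distance to the nearest one. The overlap with peaks, its strength, the distances and the list membership of the 6 genes are therefore descriptions, and none of them was tested.

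The discs carried the transgene UASt-H3 K27M, in which lysine 27 of histone H3 is methionine, or the transgene UASt-H3 K27R, in which it is arginine. Animals of both genotypes also had the driver Act5C-GAL4, which is active in nearly all cells, and its temperature-sensitive repressor alphaTub84B-GAL80ts. Larvae grew at 25 °C until 44 h of age, counted from egg laying, and then at 32 °C, where the transgene was expressed for 72 h, until dissection at 116 to 119 h, with 20 discs pooled per replicate. CUT&RUN, in which an antibody directs a nuclease to cut out the chromatin around a mark, gave 2 H3K27me3 libraries and 1 IgG library per genotype. The data used here are 1 peak list, attached by the labels to both H3K27R H3K27me3 libraries, and 1 list of upregulated genes, so no value has a replicate, and the depth of the libraries is unknown. No H3K27me3 peaks of H3K27M discs were analysed here, and so no change of the mark is reported. Expression values were not analysed here either. The tissue label could therefore only be set beside the mark: the wing genes vg and nub were covered by peaks over 100% of their spans and ap over 60.8%, while sd had no peak. The markers of other segments and discs, Ubx, abd-A, Abd-B, ey and toy, were covered over 95.5% to 100%. Covered share thus did not set vg and nub apart from these markers, and it cannot check the tissue label. The authors' highest fold enrichment, a ratio to the peak caller's background, was 9.32 (toy) to 15.0 (abd-A and Abd-B) over these markers. It was 4.90 over vg, 6.23 over ap and 6.91 over nub, and this difference was not tested.

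Each cell of the fly wing makes a single actin-filled hair that points distally. Its site on the cell is set by the planar polarity proteins Frizzled, Dishevelled, Flamingo, Van Gogh, Prickle and Diego, which gather on opposite sides of the cell. A group of effectors, Inturned, Fuzzy and Fritz, acts downstream of them, and Multiple wing hairs acts downstream of these effectors to keep actin from assembling elsewhere in the cell. Javelin and Shavenoid shape the actin outgrowth, and Dumpy, a giant protein with a zona pellucida domain, anchors the epithelium to the matrix above it. Hairs form in the pupal wing, after the larval stage sampled here. H3K27me3 is written by Polycomb repressive complex 2 and is typically found over silent developmental genes.

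The authors listed 3 of the 6 genes, mwh, jv and dpy, as upregulated with H3K27M, beside 0.941% of protein-coding genes as a whole. A peak was present over mwh and dpy, that is, over 2 of the 6, beside 7.22% of protein-coding genes when an overlap of 1 bp or more is counted. The discs were profiled whole, so a gene active, or marked, in more cells and one more strongly active, or marked, in each cell cannot be told apart. Both mwh and dpy are listed as well, and genes with a peak and on the list made up 0.108% of protein-coding genes. The remaining listed gene, jv, had no peak, and neither had sha, frtz or fy, which were not listed. The 3 listed genes were also the 3 longest of the 6, with spans of 136839 bp for dpy, 31915 bp for mwh and 26283 bp for jv, against 12150 bp for sha, 4550 bp for frtz and 1805 bp for fy. All 3 belonged to the longest 10% of protein-coding genes (at least 14624 bp). Among these long genes, 2.01% were listed and 21% overlapped a peak. The part of length in the overlaps was not tested.

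The 2 genes with a peak differed in how far that call holds. mwh alone was counted when 10% or more of the span had to be covered (5.78% of protein-coding genes), when peaks needed a −log10 q-value of 10 or more (3.43%) and when they had to reach the median fold of the list (5.21%). Neither gene was counted when 50% of the span had to be covered (4.04%) or when an end of the span had to lie in a peak (4.58%). With 2000 bp added on both sides (9.83%), or with peaks joined into domains (7.34%), mwh and dpy were counted and no other of the 6.

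mwh, which encodes a protein with formin-like domains that limits hair initiation to the distal corner of the cell, carried the mark most heavily among the 6. It lies on 3L at 1200786 to 1232700, reads from left to right by the strand of the deposited list, and was covered by 3 peaks over 6062 bp, or 19.0% of its span. The largest peak, at 1208475 to 1212730, was 4256 bp wide with the authors' fold enrichment of 3.48 over the peak caller's background and a −log10 q-value of 12.7. It began 7690 bp and ended 11945 bp from the start of the gene span. The next, 1203 bp wide, had 2.50-fold enrichment and a −log10 q-value of 3.76, and the last, 603 bp wide, had 1.93-fold. The 3 peaks thus declined in width and in fold enrichment with distance from the start, and all lay between 24.1% and 52.8% of the span. Neither end of the gene was under a peak. In fold enrichment the largest stood above 83.4% of the 1709 peaks on the list, whose median was 2.39, whereas the last stood above 3.45% of them. Per gene, the highest fold over protein-coding genes with a peak had a median of 3.14, against 3.48 for mwh. Their median covered share was 68.0%, against 19.0% for mwh.

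The span of mwh holds 8 smaller genes, 7 of them protein-coding, and 6 of the 8 belong to the lysozyme cluster, whose products digest bacterial cell walls. The largest peak over mwh covered LysD and the pseudogene LysC over 100% of their spans. LysE began 96 bp beyond the edge of this peak, and LysB ended 493 bp before it. LysP lay 457 bp beyond the last peak and LysS 10122 bp beyond it, while meep and CG9119, nearer to the start of mwh, lay 5188 bp and 3679 bp before the largest peak. Of the covered length in mwh, 712 bp (11.7%) fell within nested genes, which take up 17.7% of the span, and the rest fell between them. None of the 8 nested genes was on the upregulated list. The deposited list gives 1 interval per gene, and the labels do not state how reads shared by a gene and those nested in it were assigned.

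**Figure D1:**
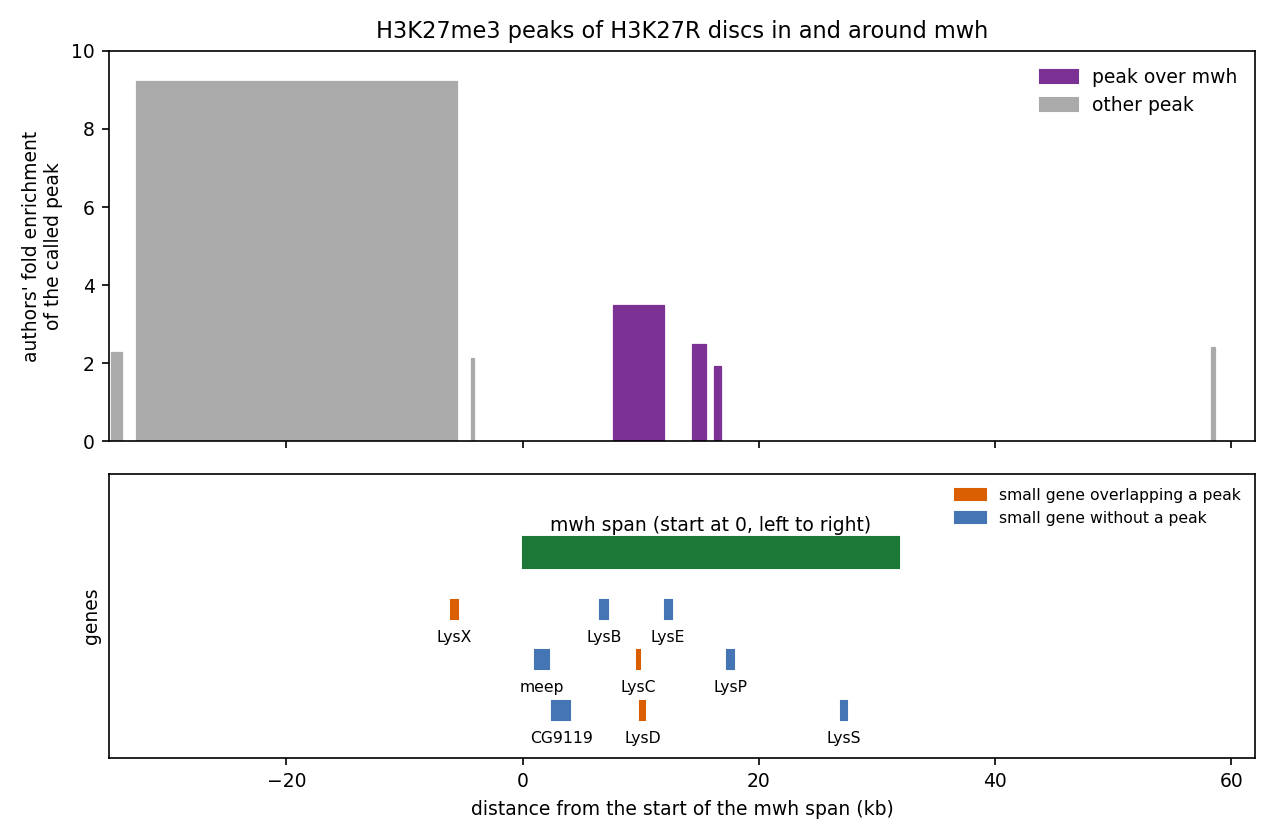
The H3K27me3 peaks of H3K27R discs (top, height showing the authors' fold enrichment of each called peak) and the genes (bottom) are plotted against distance from the start of the mwh span in kb. Peaks over mwh (3.48-fold, 2.50-fold and 1.93-fold) lie among the nested lysozyme genes, and a 9.23-fold peak ends to the left of mwh, over LysX.

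mwh lies beside a strong block of the mark. On its left, at 4103 bp, was a 256 bp peak over Aplip1 (2.13-fold), and this belonged to a domain of 32329 bp made of 4 peaks no more than 5000 bp apart. The main peak of that domain, 27204 bp wide with 9.23-fold enrichment and a −log10 q-value of 68.3, ran from bab2, a BTB-domain transcription factor gene of limb and ovary patterning, across Trhn to LysX, a lysozyme gene outside mwh that was covered over 87.4%. The domain stopped 11.8 kb short of the largest peak over mwh. Within 100 kb on either side of mwh there were 12 peaks to the left and 1 to the right, a 306 bp peak over tfc (2.43-fold) at 26.4 kb. Peaks covered 31.1% of mwh together with these flanks, a higher share than around 93.3% of protein-coding genes, for which the median was 0.51%. By covered share, fold enrichment and span, the genes most like mwh among the 1004 other protein-coding genes with a peak were bves (13.4% covered, 3.25-fold, 28429 bp) and CLIP-190 (28.5%, 3.62-fold, 24999 bp), and neither was listed.

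frtz and fy, the effectors that act with inturned upstream of mwh, had no peak and were not listed. frtz, which encodes a protein with WD40 repeats, lies on 2L at 1711302 to 1715851. Its nearest peak was 33.7 kb to the left over chinmo, a transcription factor gene of temporal identity, and was 344 bp wide with 2.17-fold enrichment. In all, 8 peaks lay within 100 kb of frtz, every one on its left, with enrichments of 1.73-fold to 9.28-fold, and covered 14.1% of frtz together with its flanks. To its right the next peak was 228.7 kb away, 29264 bp wide and 14.9-fold enriched, over erm, a zinc finger gene of neural progenitors. The left end of frtz overlaps the mitochondrial ribosomal protein gene mRpL48 by 164 bp, and neither gene was under a peak.

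fy, on 2L at 8401476 to 8403280, lay farther from a peak than the other 5 when all deposited peaks are counted. With the small peak in dpy left out by a −log10 q-value of 10 or more, or by the median fold, dpy was farther, at 615.3 kb under both limits, against 259.6 kb and 247.1 kb for fy. The nearest of all peaks to fy was 247.1 kb to the left, over PAPLA1 and CG43394 (2.49-fold). This distance exceeded that of 88.9% of the 12917 protein-coding genes without a peak, whose median was 75.9 kb. To the right the next peak, at 343.6 kb, opened the domain over SoxN, a Sox factor gene that also acts in the formation of hairs of the larval cuticle. frtz, by contrast, was nearer to a peak than the median gene, with 28.6% of genes without a peak nearer still. The pair of effectors thus lay in unlike surroundings, although neither carried a peak of its own.

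**Figure D2:**
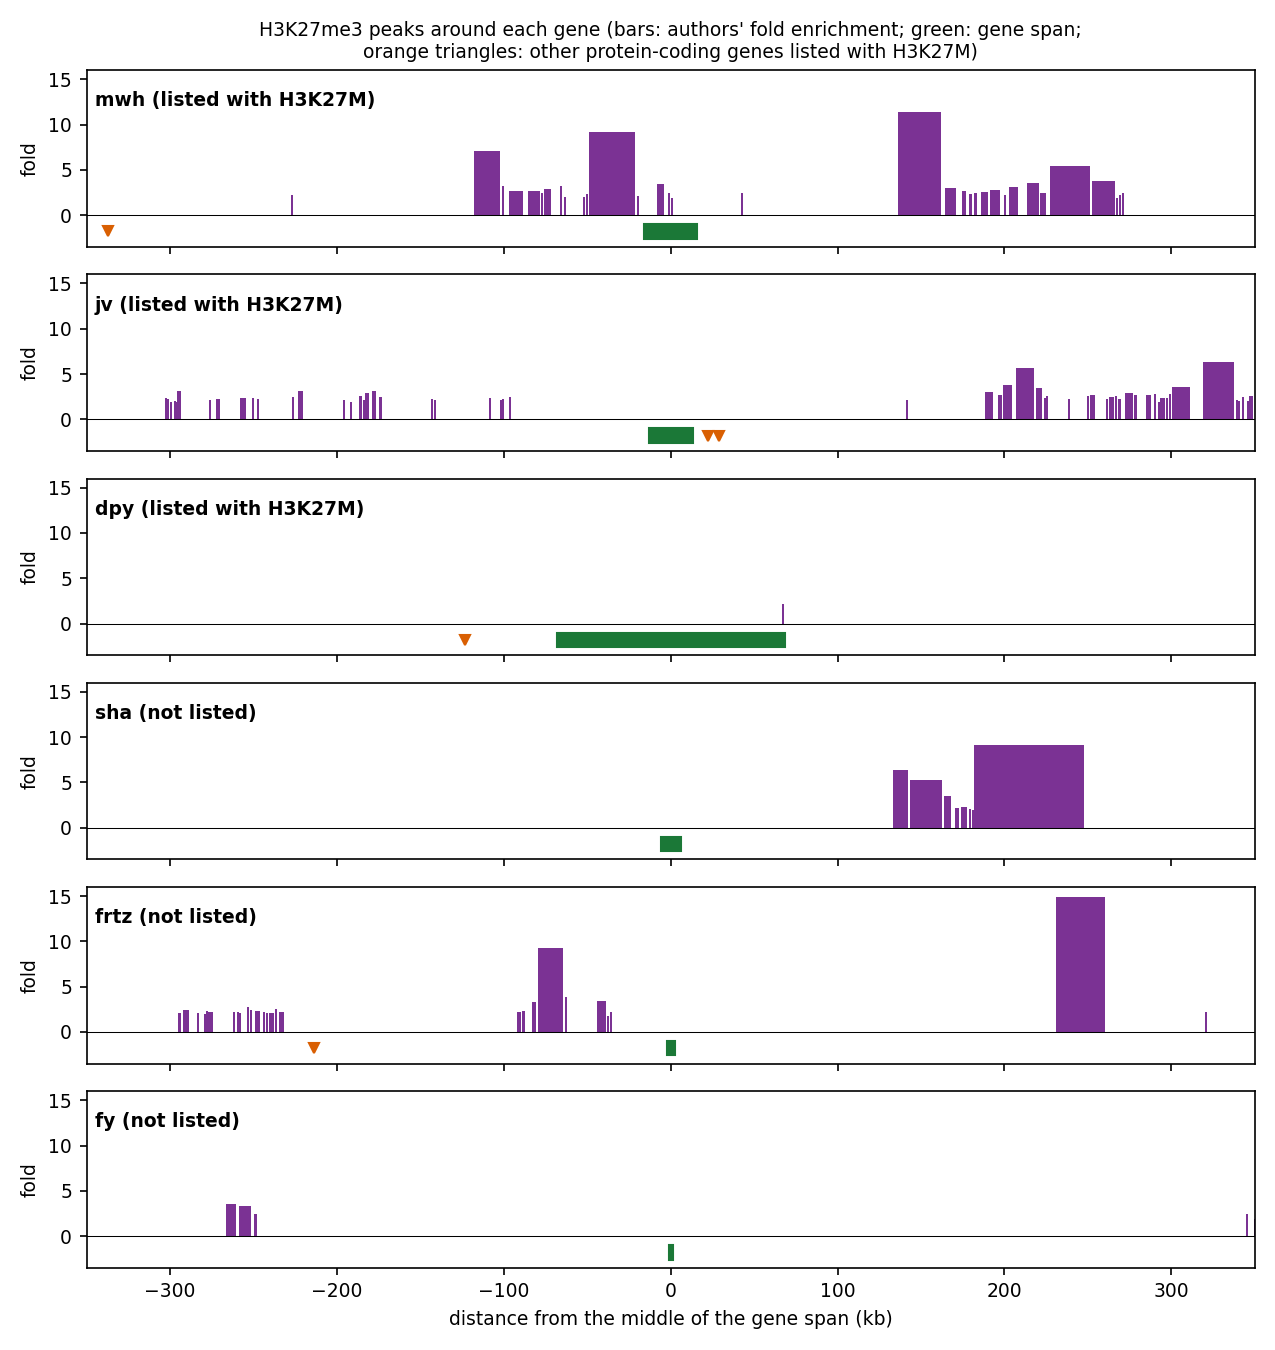
Each panel shows the H3K27me3 peaks of H3K27R discs (bars, height showing the authors' fold enrichment, drawn at least 1.2 kb wide) within 350 kb of the middle of one gene, whose span is green; triangles mark other protein-coding genes listed as upregulated with H3K27M. Peaks lie over mwh and at the right end of dpy, while jv, sha, frtz and fy lie between peaks, with fy at 247.1 kb from the nearest of all deposited peaks.

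jv and sha act on the hair itself, and they differed in list membership while neither had a peak. jv, whose product associates with the actin bundles of bristles, lies on 3L at 6563197 to 6589479, reads from right to left, and was listed. Its nearest peak was 83.1 kb to the left over CG42747 (588 bp, 2.42-fold), the end of a run of 4 weak peaks within 100 kb that reached at most 2.42-fold. To the right the next peak was 127.8 kb away over ple, the tyrosine hydroxylase gene of dopamine synthesis, at 2.13-fold. Among the 116 listed protein-coding genes without a peak, jv ranked 47th from the nearest, and the median distance of these genes was 113.6 kb. The whole of jv lies inside the span of MCU, the mitochondrial calcium uniporter gene (6550738 to 6593940), which was not listed and had no peak. Because the genes overlap over all 26283 bp of jv, reads from them can be told apart only if counting used strand or exons, which the labels do not state.

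jv lies close to other listed genes. The listed gene ndl, which encodes a protease of dorsoventral patterning in the egg, began 4458 bp to its right, and the listed gap junction gene zpg of the germline began 14.9 kb away. No peak overlapped either of them. With these 2 listed genes within 250 kb, jv belonged to the 12.1% of protein-coding genes that have 2 or more. dpy and frtz each had 1 such gene, CG15431 at 36.2 kb from dpy and CG18131 at 210.7 kb from frtz. mwh, sha and fy had none, and their nearest listed genes were CG13907 at 318.8 kb, SkpB at 802.8 kb and SoYb at 1593 kb. The median distance from a protein-coding gene to the nearest other listed gene was 359.2 kb.

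sha, required for the actin outgrowth of hairs and of the denticles of the larval cuticle, lies on 2R at 11324314 to 11336463 and was not listed. No peak lay within 100 kb of it, as for 38.1% of protein-coding genes. The nearest was 127.0 kb to the right over E(Pc), 9269 bp wide and 6.39-fold enriched. This peak opened a domain of 114.8 kb over the engrailed and invected genes, en and inv, which specify the posterior compartment, and the domain reached 9.19-fold. To the left no peak was found for 897.5 kb. The nearest protein-coding genes on either side, Or47b, an odorant receptor gene, and lambdaTry, a trypsin gene, had no peak and were not listed.

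dpy, the matrix gene of the 6, was covered by a peak over a very small share of a very long span. It lies on 2L at 4477462 to 4614300 and reads from right to left, with 16 RefSeq transcripts. At 136839 bp it was the longest of the 131 listed protein-coding genes, and 35 protein-coding genes were longer. A single peak of 218 bp, at 4612636 to 4612853, covered 0.16% of its span with 2.21-fold enrichment and a −log10 q-value of 2.53. Among the 15 listed protein-coding genes with a peak, this was the lowest covered share and the 13th highest fold enrichment, whereas mwh ranked 9th and 3rd. Of the 1709 peaks, 142 were narrower and 546 had a lower fold enrichment than this one, whose −log10 q-value was below the median of the list, 3.19.

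The peak in dpy lay near the start of the gene and far from any other peak. Counted from the right end of the span, where the gene starts by its listed strand, it ran from 1448 bp to 1665 bp, or from 1.06% to 1.22% of the span. Which of the 16 transcripts begin near it was not analysed here. The nearest other peaks on the arm were 683.1 kb to the left, over fred, and 625.8 kb to the right, over the Dpp receptor gene tkv. The distance to the nearest other peak was the greatest of all 1709 peaks on the list, for which the median was 1472 bp. dpy contains the small genes HP6, related to heterochromatin protein genes, and lncRNA:CR43716, and neither was listed or under a peak. The genes most like dpy by covered share, fold enrichment and span were CG34353 (0.13% covered, 2.16-fold, 137878 bp) and mtgo (0.15%, 2.26-fold, 118203 bp), neither of them listed.

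**Figure D3:**
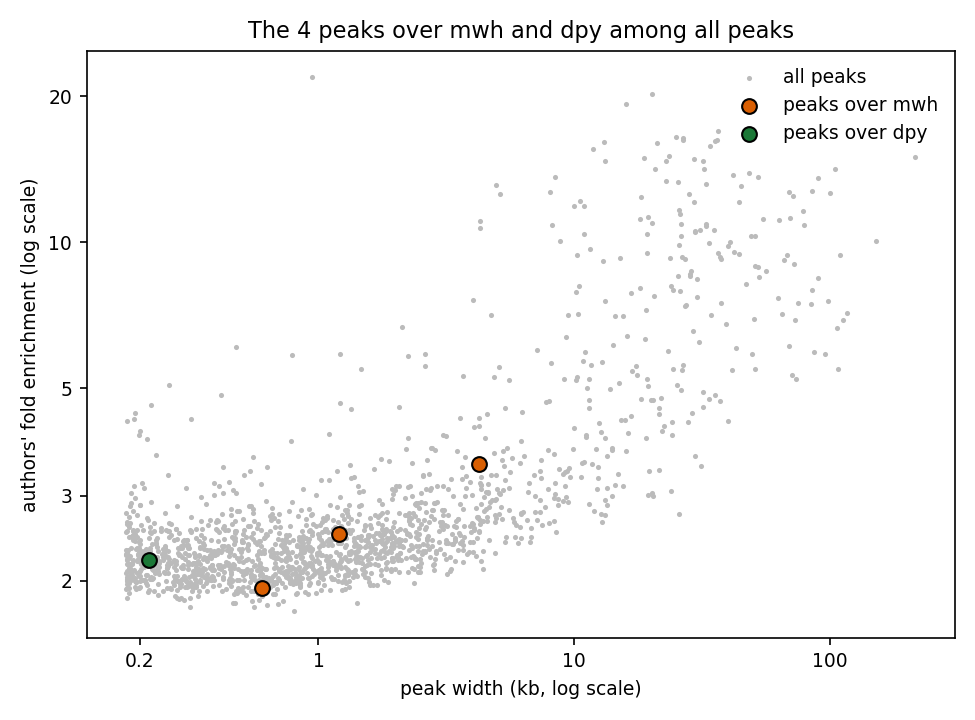
The authors' fold enrichment of each of the 1709 peaks is plotted against peak width in kb, both on log scales, with the peaks over mwh and dpy marked. The largest peak over mwh (4256 bp, 3.48-fold) stands above most peaks in both measures. The other peaks over mwh and the peak over dpy (218 bp, 2.21-fold) lie lower in both, within the dense cloud of peaks.

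Other genes of hair polarity, hair outgrowth and the apical matrix were taken from 7 lists, written by hand with earlier results of these data known. Apart from the 6 genes they held 49 genes. None of the 49 was on the upregulated list, beside 0.941% of all protein-coding genes. The 3 listed genes of these lists, mwh, jv and dpy, had been taken out as members, so nothing is read from this count. A peak overlapped 4 of the 49 (8.16%), beside 7.22% of all protein-coding genes. Among the 45 others the median distance to a peak was 59.7 kb, compared with 75.9 kb for all protein-coding genes without a peak.

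The 4 genes were unlike one another in their mark. Of 6 core planar polarity genes, pk, which encodes the Prickle protein of the proximal cell side, had 4 small peaks over 4.36% of its span, at most 2.79-fold. The other 5, fz, dsh, Vang, stan and dgo, had none and lay 21.7 kb to 389.3 kb from a peak. Of 5 genes of the Fat and Dachsous system, fj, whose kinase product modifies both cadherins, was covered over 91.6% with 4.56-fold enrichment, and ft, ds, dachs and app had no peak. Of 3 regulators of hair formation, SoxN was covered over 100% (9.43-fold), grh, the Grainy head factor of the epidermal barrier, over 1.15% (3.65-fold), and ovo, whose product Shavenbaby switches on hair genes in the embryo, lay 241.7 kb from a peak.

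The members with a peak, mwh and dpy, were taken out of the lists of effectors, actin, matrix and chitin. Nothing is read from the count that remains. The other 35 genes of these lists held no peak, beside 7.22% of protein-coding genes with a peak. These were in and Rab23, all 12 other genes of hair and bristle actin, among them sn, f, ck and trc, all 12 other genes of zona pellucida domain proteins, among them m, dy, dyl and pio, and all 9 genes of chitin synthesis and organisation, among them kkv and knk. The nearest approaches were 0.86 kb for fry, whose product acts with the kinase Trc to keep hairs unbranched, 2.06 kb for flr and 2.70 kb for mey. With the 6 genes included, 1 of 13 genes of zona pellucida domain proteins (dpy) and 1 of 5 polarity effectors (mwh) had a peak. Both had been chosen with this known and are among the longest 10% of protein-coding genes, of which 21% overlapped a peak, so nothing is read from these counts.

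**Figure D4:**
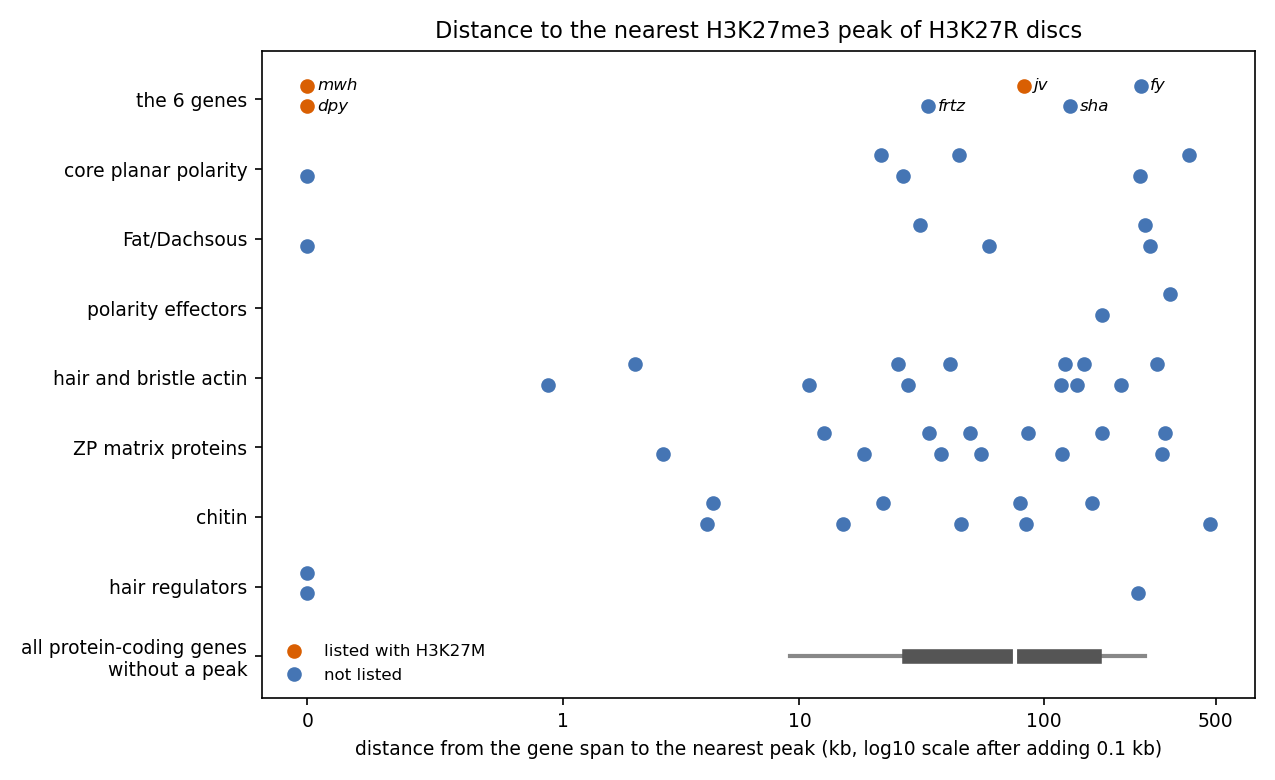
Each point is a gene, placed by the distance from its span to the nearest H3K27me3 peak of H3K27R discs in kb (log10 scale after adding 0.1 kb, with 0 for genes that overlap a peak), for the 6 genes and for the other genes of each list; the bottom row gives the median (gap), the 25 to 75 (thick) and the 10 to 90 (thin) percentile range of all protein-coding genes without a peak. Of the 6 genes, mwh and dpy stand at 0 and the others at 33.7 kb to 247.1 kb, and the listed genes mwh, dpy and jv are the only points marked as listed.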

How the data were processed

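The peak list and the list of upregulated genes were used as the authors deposited them. Per the submitters' processing notes, Bowtie2, MACS2 and the build dm6 were used; no version, threshold or use of the IgG libraries is stated there. Per the file layout, the deposited peak list gives for each peak the authors' fold enrichment (a ratio to the peak caller's background), the authors' −log10 q-value, and a deposited score, which was not used. The lowest deposited fold was 1.73. The way the 148 upregulated genes were called is not stated in the labels. Their intervals each matched the span of 1 RefSeq gene to the base. An overlap means 1 bp or more of the gene span under a peak. Distances count the bases between span and peak. Peaks no more than 5000 bp apart were joined into domains. Coordinates are 1-based. Strands were known for listed genes only.

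The members and gene lists were chosen with earlier results of these data known. Named genes are the 6 members, their nearest listed genes, and every list gene with a peak or on the upregulated list. The 2 genes most like each member with a peak (Euclidean distance over covered share, log2 fold and log10 span) are also named. Naming the nearest protein-coding gene on either side was planned for each member, but both were named for sha only. Other list genes, the nested genes and the genes under neighbouring peaks serve as examples and were named after their values were seen. Python 3.11.15 with pandas 2.3.3 was used. Promoter motifs were planned and not analysed here.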

Additional observations from a re-analysis of the deposited data

How the results depend on the processing

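The count of the 6 genes with a peak, 2, was 1 (mwh) when 10% or more of the span had to be covered, when peaks needed a −log10 q-value of 10 or more, and when they had to reach the median fold of the list. It was 0 when 50% had to be covered and when an end of the span had to lie in a peak, and 2 with 2000 bp added on both sides or with domains. The 3 listed genes were also 3 with a reciprocal overlap of 50% or more. The median distance of the 6 genes to a peak, 58.4 kb, was 156.5 kb when peaks needed a −log10 q-value of 10 or more and 105.0 kb when they had to reach the median fold, because fewer peaks remained; dpy then lay 615.3 kb from one under both. Of the 49 other genes, 4 with a peak became 2 when 50% of the span had to be covered and 2 with the −log10 q-value limit. The share of all protein-coding genes went from 7.22% to 4.04% and 3.43% under the same limits. No paired analysis was possible because the lists hold no values of single replicates, so leaving out a replicate was not possible either. The depth of the libraries is unknown, so weak peaks such as that in dpy cannot be weighed against depth.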

Other observations

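Of the 15 protein-coding genes on the upregulated list that overlapped a peak, 5 contain smaller genes: mwh, dpy, hiw, CG14082 and CG42260. A peak lay over a nested gene in 2 of them. In CG42260 the single 181 bp of covered length fell wholly within nested genes (100%), and in mwh 11.7% did. In the other 3 the peaks lay outside the nested genes. These values were looked at after those of mwh were seen, and they were not tested. The share of all protein-coding genes that contain smaller genes was not analysed here, so nothing is read from these counts.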
